A study of Mus musculus with 19 samples.

Results

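The subunits of the mitochondrial respiratory chain were described in the infrarenal aorta of mice 7 days after elastase or sham infusion. Members were all genes measured by a probe set with exactly 1 gene symbol whose symbol marks a subunit of complex I (Nduf), II (Sdh), III (Uqcr), IV (Cox4 to Cox8) or V (Atp5), and the brightest probe set stood for a gene with several. The rule used no difference between groups. It found 87 of the 30142 genes measured, 37 in complex I, 4 in complex II, 9 in complex III, 18 in complex IV and 19 in complex V. Of these 82 are genes of subunits or their isoforms and 5 are listed as pseudogenes (Ndufa11b, Uqcrh-ps1, Atp5c1-ps, Atp5l-ps1 and Atp5l2). Ndufa4 and Ndufa4l2 were counted under complex I by their symbols, although Ndufa4 is now regarded as a subunit of complex IV. Ndufb1, Atp5c1, Ndufb4 and Ndufa11 had no probe set with their symbol alone and were not analysed here.

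The respiratory chain sits in the inner mitochondrial membrane. Complexes I and II pass electrons from NADH and succinate to ubiquinone, complex III passes them on to cytochrome c, and complex IV passes them to oxygen. Complexes I, III and IV pump protons, and complex V, the ATP synthase, lets them flow back through a rotating ring of c subunits and makes ATP. Nuclear genes encode most subunits and all members described here except where the mitochondrial genome is named. Brown fat, which can lie around the aorta of mice, is rich in mitochondria.

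Each of the 19 arrays held RNA of 1 mouse. All mice were C57BL/6J, an inbred strain with no engineered allele named in the labels, and were operated at 10 weeks of age. The lower aorta was filled for 5 min at 120 mmHg with porcine pancreatic elastase at 2.5 U/mL (PPE), an enzyme that digests elastin and induces an aneurysm, or with saline alone (sham). The groups were male PPE (7 arrays), male sham (5), female PPE (4) and female sham (3), and these numbers limit the precision of each value. Values are the deposited log2 intensities. The median of an array over its probe sets was 5.61 to 5.85 in the 12 male and 6.17 to 6.31 in the 7 female arrays, so levels were not compared between the sexes, only the PPE differences. PPE was compared with sham in each sex, and the male minus the female difference was tested, with limma over all 30142 genes and Benjamini-Hochberg adjustment; a gene was called at an adjusted p below 0.05.

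Markers of other cells moved with PPE in these whole-tissue samples, and their part in the member differences was not tested except where a value is given. In male aortae 9 of 10 smooth muscle markers were called lower (median log2 difference −1.91). Called higher were 7 of 8 macrophage, 6 of 7 neutrophil and 7 of 7 T and NK cell markers. In female aortae 7 of 10 smooth muscle markers were called lower (median −1.26), and 1 of 8 macrophage, 4 of 7 neutrophil and 7 of 7 T and NK cell markers higher. Over all genes 9.67% were called higher and 9.98% lower in males, and 2.77% and 1.45% in females. All 10 smooth muscle markers were below 0 and all 8 macrophage markers above 0 in each sex. Of 5 endothelial markers 3 were called lower in males and 0 in females, and of 4 fibroblast markers 2 and 1. The mean smooth muscle marker level ran from 10.40 to 11.43 in male PPE against 12.02 to 13.05 in male sham arrays, and from 11.15 to 11.79 in female PPE against 12.48 to 12.82 in female sham arrays. The mean macrophage marker level ran from 13.50 to 14.43 in male PPE against 11.36 to 13.11 in male sham arrays, and from 13.58 to 14.31 in female PPE against 12.98 to 13.25 in female sham arrays. In bulk tissue, a change in the number of cells of a type and a change in RNA per cell cannot be told apart.

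Male sham 4 (numbers are those in the titles) was rich in fat markers, and results in males are given with and without it. Its brown fat marker mean, over 9 markers that are not members, was 10.03, and that of the other 4 was 6.25 to 6.5. Ucp1, the uncoupling protein that defines brown fat, was at 15.83 in it against 4.95 to 5.79, and its mean over 12 adipocyte markers was 12.36 against 8.47 to 9.61. Skeletal muscle markers, which aorta should lack, averaged 9.87 in female sham 1, 8.85 in female PPE 2 and 6.77 in male PPE 6.

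Promoter sequences were available from RefSeq (GRCm38.p6, 250 bases before to 50 after each start) for 66 of the 82 members that are not pseudogenes, as 70 promoters. Motifs of regulators known for respiratory chain genes were searched on both strands. The NRF1 motif, GCGCA and GCGC with any 1 base between them, was found in 15 of the 70 (21.4%), against 4.60% of 32851 promoters of all genes. The ETS motif CCGGAAG, read by GABP, was in 17 (24.3%, against 8.86%), the YY1 motif AAGATGG in 11 (15.7%, against 6.34%) and the ERR motif AAGGTCA in 7 (10.0%, against 4.72%). Complex V promoters held the NRF1 motif in 5, the ETS motif in 6, the ERR motif in 4 and the YY1 motif in 3 of 16. Of 24 members called in males with or without male sham 4, 18 had a promoter in the table, and 6 of these held a motif within the 120 bases before the start. These matches are descriptions of letters and not evidence of binding.

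Below are those 120 bases for 4 of the 6, chosen because they show an NRF1, an ETS and an ERR match in members called in males (Sdhd without male sham 4, not over all arrays), with the match in capitals, written 5′ to 3′ on the gene's own strand. They are Atp5g3 (chr2:73911327-73911446, minus strand, ERR match in reverse, at a start inside the RefSeq span of the gene), Atp5g2 (chr15:102671048-102671167, minus strand, NRF1 match), Atp5h (chr11:115419920-115420039, minus strand, ETS match in reverse) and Sdhd (chr9:50603850-50603969, minus strand, an NRF1 match and an ETS match in reverse).
Atp5g3: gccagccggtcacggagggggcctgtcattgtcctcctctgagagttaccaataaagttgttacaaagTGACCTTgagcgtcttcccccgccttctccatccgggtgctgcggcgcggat
Atp5g2: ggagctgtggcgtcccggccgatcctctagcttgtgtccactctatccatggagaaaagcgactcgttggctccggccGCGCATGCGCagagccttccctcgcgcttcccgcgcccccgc
Atp5h: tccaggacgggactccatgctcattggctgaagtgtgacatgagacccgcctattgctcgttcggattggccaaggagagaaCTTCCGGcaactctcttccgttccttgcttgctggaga
Sdhd: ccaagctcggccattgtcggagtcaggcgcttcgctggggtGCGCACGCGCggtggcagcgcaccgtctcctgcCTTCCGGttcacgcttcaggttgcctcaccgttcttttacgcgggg

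In male aortae 10 members were called higher and 3 lower after PPE, and the ATP synthase accounted for 6 of the 10. Over all 30142 genes 19.7% were called, 9.67% higher and 9.98% lower, so the members' count of higher calls was near that share and their count of lower calls below it. The median log2 difference over the members was 0.08, against 0.01 over all genes, and 59 of 87 were above 0. By complex the median difference was 0.03 for I, 0.02 for II, −0.03 for III, 0.20 for IV and 0.26 for V. All 19 members of complex V were above 0. Without male sham 4, 19 members were called higher and 3 lower, against 8.44% and 9.81% of all genes (18.2% in either direction), and the median was 0.20, against 0.02 over all genes. The medians by complex were then 0.10, 0.23, 0.12, 0.27 and 0.30 for I to V, and 10 of 19 complex V members were called higher.

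In female aortae 81 of 87 members were below 0 and the median log2 difference was −0.20, against −0.02 over all genes. The medians were −0.26, −0.28, −0.18, −0.22 and −0.16 for complexes I to V, and all 19 members of complex V were below 0. Over all arrays only Ndufv3 was called, as lower, and 4.22% of all genes were called, 1.45% lower and 2.77% higher. Each gene's variance was shared by all groups, and the fit without male sham 4 called 7 members lower in females. That fit called 1613 of 30142 genes in females in either direction. Over all arrays 20 members (23%) had an unadjusted limma p below 0.05, against 14.7% of all genes. For 36 of 87 members all 4 PPE arrays lay below all 3 sham arrays, and for none did they lie above; over all genes 8.86% lay below and 11% above. Complex I held 23 of the 36, complex II 2, complex III and IV 4 each and complex V 3.

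**Figure D1:**
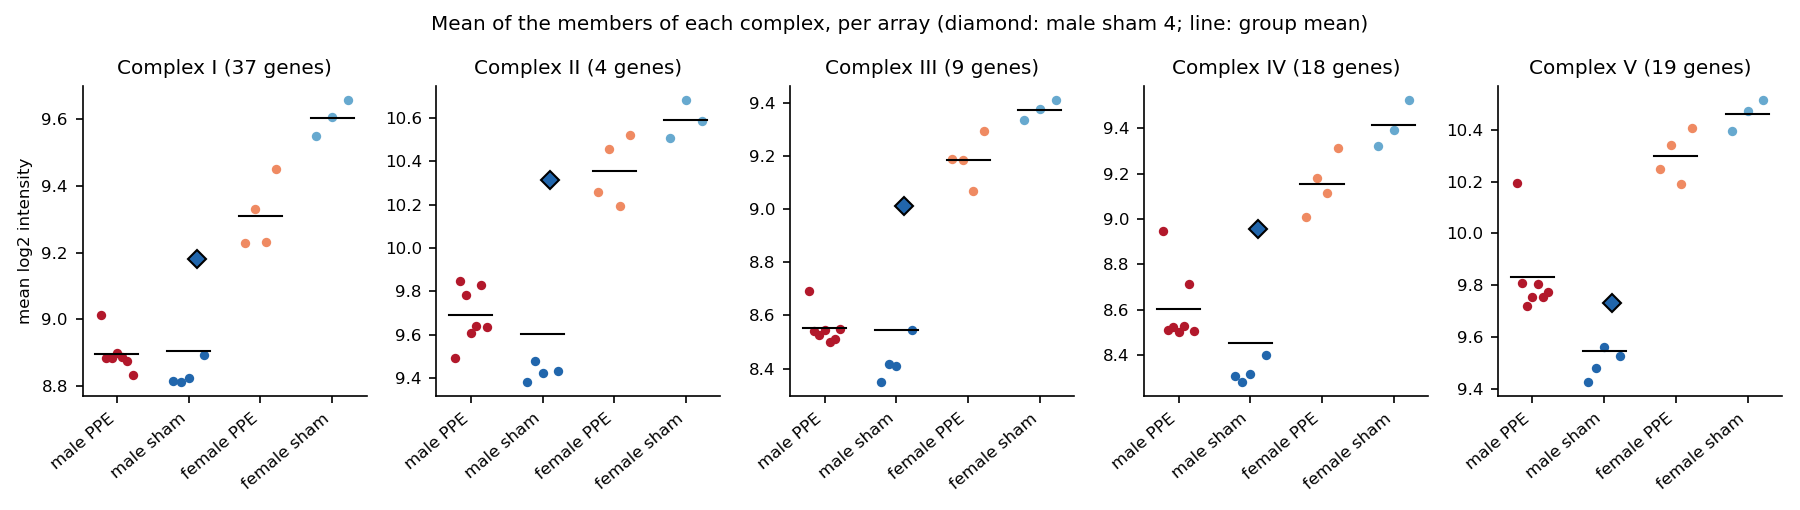
Mean log2 intensity of the members of each complex in each of the 19 arrays, by group, with PPE left of sham. For complex V the male PPE arrays ran from 9.72 to 10.19 and the male sham arrays from 9.43 to 9.73, and male sham 4 is the highest male sham point in every complex, at 10.32 in complex II.

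The complex V mean ran from 9.72 through a median of 9.78 to 10.19 in male PPE arrays, against 9.43, 9.48, 9.56, 9.73 and 9.53 in male sham 1 to 5. The groups overlapped only through male sham 4. In females it was 10.25, 10.34, 10.19 and 10.41 in PPE arrays, against 10.40, 10.47 and 10.51 in sham arrays, where PPE 4 overlapped sham 1. The complex I mean was 9.23, 9.33, 9.23 and 9.45 in female PPE arrays, against 9.55, 9.60 and 9.66 in female sham arrays, with no overlap. In males the complex I mean ran from 8.83 through 8.89 to 9.01 in PPE arrays, against 8.82, 8.81, 8.83, 9.18 and 8.89 in sham arrays, and the groups overlapped with or without male sham 4.

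Atp5g3, Atp5g2 and Atp5g1 encode the same mature c subunit of the ATP synthase ring. Atp5g3 (chr2:73908447-73912464) ran from 9.92 through a median of 10.01 to 10.24 in male PPE arrays, against 9.51, 9.71, 9.74, 9.72 and 9.70 in male sham arrays. Every PPE array was above every sham array. Atp5g3 rose by 0.36 ± 0.07 (SE, 1.28-fold, limma adjusted p = 0.000615), the lowest adjusted p of the members, and by 0.37 without male sham 4 (adjusted p = 0.00118). Female PPE arrays had 10.38, 10.42, 10.31 and 10.45, against 10.53, 10.59 and 10.33 in female sham arrays. Those groups overlapped and the difference was −0.09 (adjusted p = 0.737).

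Atp5g2 averaged 13.52 ± 0.34 in male PPE and 13.07 ± 0.21 in male sham arrays (SD, n = 7 and 5) and rose by 0.45 (adjusted p = 0.0401), but was not called without male sham 4 (0.39, adjusted p = 0.106). Its probe set lies on chromosome 7 by its identifier, while the gene is on chromosome 15, and a second probe set on chromosome 15 had a male difference of 0.49. Atp5g1 (chr11:96072793-96075694) ran from 8.46 through 8.54 to 9.15 in male PPE arrays, against 8.11, 8.53, 8.64, 7.61 and 8.01 in male sham arrays, and was not called (0.43, adjusted p = 0.0673, and 0.29, adjusted p = 0.206, without male sham 4). In females it was 8.55, 9.12, 8.84 and 8.94 in PPE arrays, against 9.41, 9.42 and 9.29 in sham arrays. All female PPE arrays were below all sham arrays, and the difference of −0.51 was not called (adjusted p = 0.223).

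Atp5md and Atp5mpl encode small membrane proteins that hold ATP synthase dimers or are associated with them. Atp5md (chr19:47083471-47090647) ran from 10.76 through 11.03 to 12 in male PPE arrays, against 10.48, 10.51, 10.53, 10.49 and 10.30 in male sham arrays. The groups did not overlap, and male PPE 1 held the highest value. Atp5md rose by 0.67 ± 0.16 (1.59-fold, adjusted p = 0.00673), and by 0.52 without male PPE 1. Atp5mpl (chr12:111961374-111967009) ran from 10.85 through 11.09 to 11.70 in male PPE arrays, against 10.49, 10.48, 10.75, 10.68 and 10.62 in male sham arrays. It did not overlap either and rose by 0.55 ± 0.13 (1.47-fold, adjusted p = 0.00394). In females both overlapped, with differences of −0.19 and −0.18.

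Atp5h (subunit d of the stalk) and Atp5j2 (subunit f of the membrane part), named after their values were seen, each rose by 0.26 in males (adjusted p = 0.0368 and 0.0323). Groups were separate for Atp5h. Each lost its call in several fits that left out 1 array, and so did Atp5g2: 12 of 19 such fits called Atp5h, 14 called Atp5j2 and 13 called Atp5g2. In 7 of the 19 a female array was left out, which leaves the male difference unchanged, and those fits kept all of these calls. Every loss came from leaving out 1 of the 12 male arrays. Genes of the catalytic core were not called over all arrays and were called without male sham 4. Atp5b, the catalytic beta subunit (chr10:128083307-128090388), ran from 10.40 through 10.55 to 10.76 in male PPE arrays, against 10.17, 10.20, 10.15, 10.88 and 9.84 in male sham arrays. Male sham 4 was above every PPE array, and the other 4 were below every PPE array. The difference in Atp5b was 0.32 over all arrays (adjusted p = 0.0846) and 0.48 ± 0.09 without male sham 4 (adjusted p = 0.000647). Atp5a1, the alpha subunit, showed the same order, with differences of 0.16 (adjusted p = 0.368) and 0.30 (adjusted p = 0.00304). Called without male sham 4 and not over all arrays were also Atp5l (subunit g, whose brightest probe set lies on chromosome 5 and not on chromosome 9 with the gene), Atp5o and the pseudogene Atp5l2. Over all arrays that probe set of Atp5l had a male difference of 0.40. The probe sets of Atp5l on chromosome 9 had 0.22 and 0.01 and were not tested on their own. A fit with array weights that kept male sham 4 called Atp5b, Atp5a1, Atp5l, Atp5o and Atp5l2 higher as well.

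**Figure D2:**
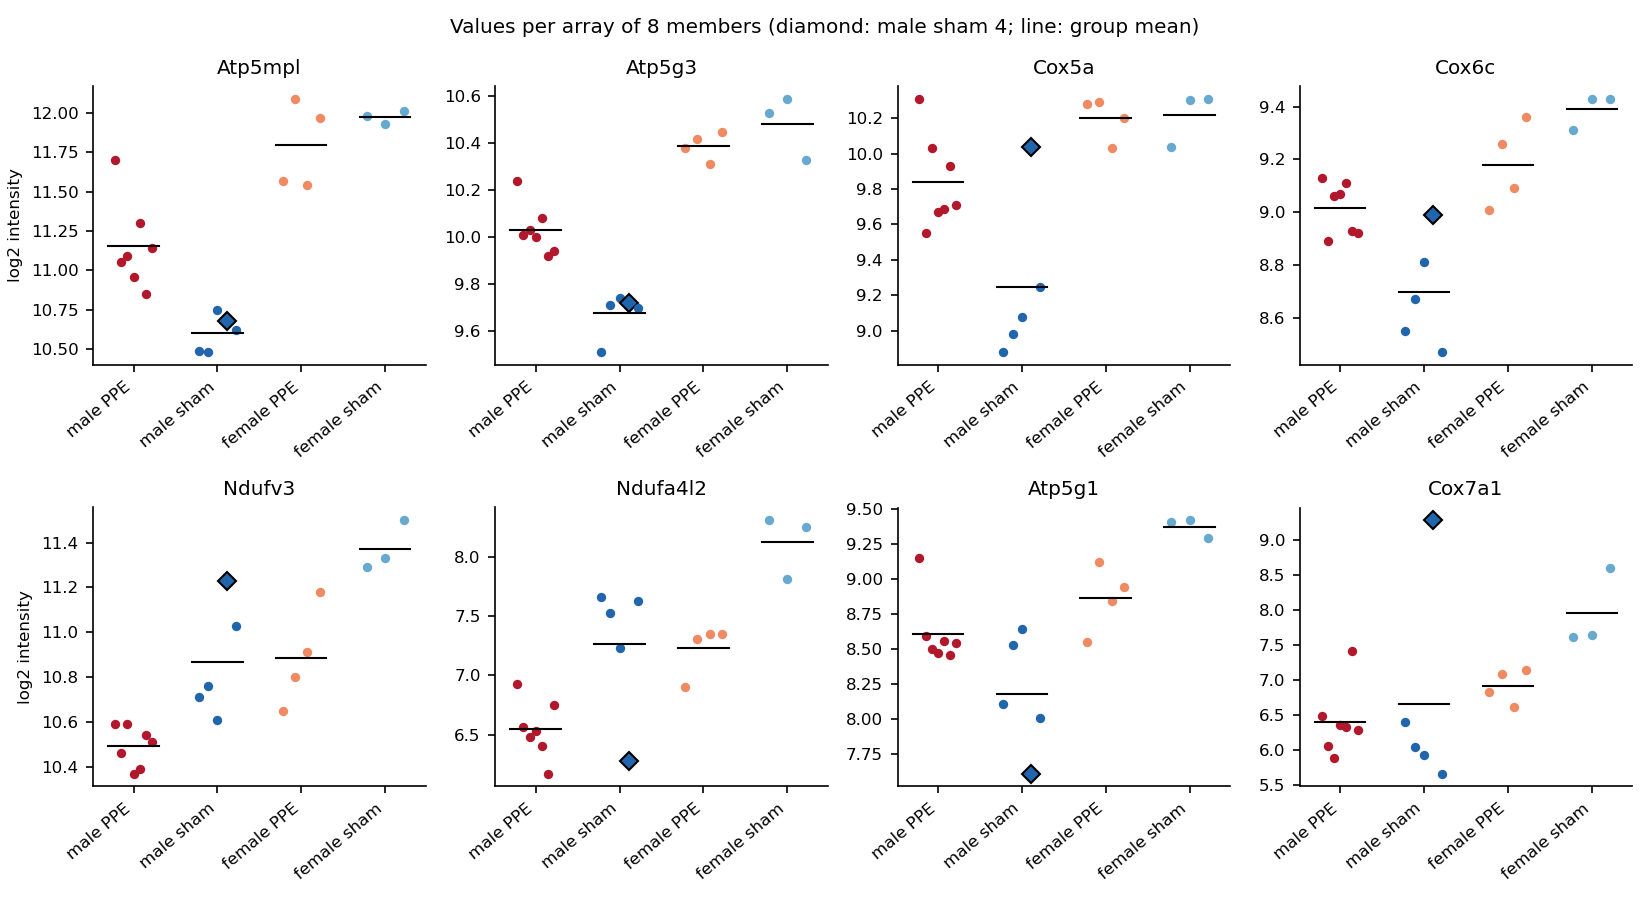
Log2 intensity in each of the 19 arrays for 8 members, by group, with PPE left of sham in each sex; points are arrays. Atp5g3 and Atp5mpl show every male PPE array above every male sham array, and Ndufv3 shows every PPE array below every sham array in each sex.

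Of the 18 complex IV members 2 were called higher in males (11.1%, near the 9.67% of all genes) and 0 lower, while 13 were above 0 and 5 below. Cox5a (chr9:57517328-57532427), a structural subunit present in all tissues, ran from 9.55 through 9.71 to 10.31 in male PPE arrays, against 8.88, 8.98, 9.08, 10.04 and 9.25 in male sham arrays. Male sham 4 lay among the PPE arrays and the other 4 below them. Cox5a rose by 0.60 ± 0.17 (1.51-fold, adjusted p = 0.0159), and by 0.79 without male sham 4 (1.73-fold, adjusted p = 0.000172), and lost its call without male sham 1 (0.50). In females it averaged 10.20 ± 0.12 in PPE and 10.22 ± 0.15 in sham arrays (SD, n = 4 and 3), a difference of −0.02.

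Cox6c (chr15:35931976-35938246), another structural subunit, ran from 8.89 through 9.06 to 9.13 in male PPE arrays, against 8.55, 8.67, 8.81, 8.99 and 8.47 in male sham arrays. Without male sham 4 the groups did not overlap. It rose by 0.32 ± 0.09 (adjusted p = 0.0131), and by 0.39 without male sham 4 (adjusted p = 0.00199). The female PPE values of Cox6c were 9.01, 9.26, 9.09 and 9.36, against 9.31, 9.43 and 9.43 in female sham arrays, and PPE 4 overlapped sham 1 (difference −0.21, adjusted p = 0.432).

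Complex IV has subunits with isoforms for muscle and brown fat, and 3 of these were among the members. Cox7a1 (chr7:30184171-30186030), the form of heart, skeletal muscle and brown fat, ran from 5.89 through 6.33 to 7.41 in male PPE arrays, against 6.40, 6.04, 5.92, 9.29 and 5.66 in male sham arrays. The high arrays were male sham 4 and male PPE 6. The difference was −0.26 over all arrays (adjusted p = 0.783) and 0.40 without male sham 4 (adjusted p = 0.331), so its sign turned on that array. Among females, Cox7a1 was 6.83, 7.08, 6.61 and 7.15 in PPE arrays, against 7.62, 7.65 and 8.61 in sham arrays. PPE arrays were all below sham arrays, but the difference of −1.04 was not called (adjusted p = 0.49).

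Cox8b, the corresponding form of subunit 8, was at 7.06 in male sham 4 and at 3.71 to 4.20 in the other male sham arrays, and its difference was −0.20 with and 0.43 without that array, not called in either fit. Cox6a2, the third, was not called in males (0.37, adjusted p = 0.209) or females (−0.19). Their counterparts in most tissues had male differences of 0.23 (Cox7a2), 0.53 (Cox8a) and 0.11 (Cox6a1), of which Cox8a was called without male sham 4 (0.61, adjusted p = 0.0415). Cox4i1, the usual form of subunit 4, was at 0.19 and Cox4i2, the form of lung and of low oxygen, at −0.07, with neither called. Cox5b (0.21), Cox6b1 (−0.03) and the testis form Cox6b2 (−0.14) were not called either. With male sham 4 left out the differences were 0.32 for Cox4i1, 0.38 for Cox5b, 0.14 for Cox6b1 and −0.19 for Cox6b2, again not called, so the sign of Cox6b1 turned on that array.

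In the limma fit over all arrays without weights, complex I was the only complex with members called lower. A fit with array weights called members lower in females in every complex. Ndufv3 (chr17:31520115-31531326), an accessory subunit of the part that binds NADH, ran from 10.37 through 10.51 to 10.59 in male PPE arrays, against 10.71, 10.76, 10.61, 11.23 and 11.03 in male sham arrays. In females it was 10.65, 10.80, 10.91 and 11.18 in PPE arrays, against 11.29, 11.33 and 11.50 in sham arrays. PPE arrays lay below all sham arrays in each sex. Ndufv3 fell by 0.38 ± 0.10 in males (1.30-fold, adjusted p = 0.0143) and by 0.49 ± 0.13 in females (1.40-fold, adjusted p = 0.0483). Without male sham 4 the male difference was −0.28 (adjusted p = 0.0462), and the female call was kept in 5 of 19 fits that left out 1 array. The female call was also lost after quantile normalization and in a fit of the female arrays alone.

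Ndufa4l2 (chr10:127509274-127517154), a relative of Ndufa4 that is induced by low oxygen through HIF-1 and is expressed in mural cells of vessels, ran from 6.17 through 6.53 to 6.93 in male PPE arrays, against 7.66, 7.53, 7.23, 6.28 and 7.63 in male sham arrays. Male sham 4 lay among the PPE arrays, and the other 4 were above all of them. Ndufa4l2 fell by 0.72 ± 0.20 (1.65-fold, adjusted p = 0.0146), and by 0.97 ± 0.14 without male sham 4 (1.95-fold, adjusted p = 8.86e-05), and lost its call without male sham 1. In females it was 6.90, 7.31, 7.35 and 7.35 in PPE arrays, against 8.31, 7.81 and 8.25 in sham arrays. Those groups did not overlap. The difference of −0.90 was not called over all arrays (limma adjusted p = 0.062), but was called without male sham 4. Smooth muscle markers moved the same way, and their part in this difference was not tested. Ndufa4 itself was at 0.12 in males (0.29 without male sham 4), not called in either fit. In females it was at −0.50, not called over all arrays but called lower in the fit without male sham 4.

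The third lower call in males was the pseudogene Ndufa11b (−0.44, adjusted p = 0.0388), whose highest sham value came from male sham 5 (7.67 against 6.57 to 6.91 in the others). A probe set shared by Ndufa11 and Ndufa11b differed by −0.28 in males and −0.40 in females. Ndufc2 (chr7:97400003-97407800), an accessory subunit of the membrane arm, ran from 9.13 through 9.64 to 9.85 in male PPE arrays, against 9.10, 8.95, 9.09, 9.09 and 9.04 in male sham arrays, with no overlap. It rose by 0.43 ± 0.11 (1.35-fold, adjusted p = 0.011). Ndufa3, a small accessory subunit, rose by 0.44 (adjusted p = 0.0357) over all arrays, and by as much without male sham 4, where it was not called (0.44, adjusted p = 0.0579).

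The core subunits Ndufv1, Ndufs1, Ndufs3, Ndufs7 and Ndufs8 of the matrix arm of complex I were not called over all male arrays. The differences were −0.08 for Ndufv1, −0.04 for Ndufs1, 0.08 for Ndufs3, 0.00 for Ndufs7 and 0.18 for Ndufs8. When male sham 4 was left out they were 0.07, 0.10, 0.19, 0.13 and 0.25, so those of Ndufv1 and Ndufs1 turned in sign, and Ndufs3 was called (adjusted p = 0.022). In females the same genes were at −0.41, −0.15, −0.17, −0.31 and −0.39, none called over all arrays. The fit without male sham 4 called Ndufv1 lower in females. Ndufa9 (chr6:126821863-126849144), an accessory subunit near the ubiquinone site, ran from 9.32 through 9.36 to 9.47 in male PPE arrays, against 9.02, 8.92, 8.93, 9.78 and 9.13 in male sham arrays. The PPE arrays lay between male sham 4 and the other 4. The difference was 0.21 over all arrays (adjusted p = 0.245) and 0.37 without male sham 4 (adjusted p = 0.00102), and Ndufa10 (0.24) and Ndufb6 (0.36) were likewise called without that array and not over all arrays.

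Ndufb9, an accessory subunit of the membrane arm named after its values were seen, had the largest female difference of complex I. It was 13.40, 13.90, 13.30 and 13.82 in female PPE arrays, against 14.28, 14.85 and 14.40 in female sham arrays, with no overlap. The difference of −0.91 was not called over all arrays (limma adjusted p = 0.064), but was called without male sham 4. In males it was −0.45 (adjusted p = 0.14), with male sham 4 at 14.28 and the other sham arrays at 12.77 to 13.35, and −0.22 without male sham 4 (adjusted p = 0.399).

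Over all arrays neither complex II nor complex III had a member called in males or in females. Complex II links the chain to the TCA cycle, and its differences in males were −0.01 for the flavoprotein Sdha, 0.05 for the iron-sulphur protein Sdhb, and −0.04 and 0.34 for the membrane anchors Sdhc and Sdhd. Without male sham 4 they were 0.22, 0.23, 0.14 and 0.46, and Sdhd was called (adjusted p = 0.0168). In females they were −0.33, −0.22, −0.46 and 0.07, and the fit without male sham 4 called Sdhc lower. Sdha was at 11.54 in male sham 4, and the other 4 sham arrays of males had 10.19 to 10.52. In complex III the core proteins Uqcrc1 and Uqcrc2 were at 0.01 and 0.00 in males and the Rieske iron-sulphur protein Uqcrfs1 at −0.03, and at −0.18, −0.34 and −0.19 in females. With male sham 4 left out the male differences were 0.22, 0.19 and 0.12, not called, and that of Uqcrfs1 turned in sign.

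Male sham 4 held more signal than the other 4 male sham arrays for many members. It was above all 4 for 52 of 87 members (59.8%), against 28.6% of all genes, and below all 4 for 5. Its median excess was 0.88 in complex II, 0.65 in III, 0.39 in I, 0.33 in IV and 0.13 in V, next to 3.34 for brown fat and 3.28 for adipocyte markers. The largest excesses were those of Cox7a1 (3.29) and Cox8b (3.12), followed by Sdha (1.17). The 5 members below all others were Ndufa4l2, Atp5g1, Cox7a2l, Atp5g2 and Cox6b2. Without it 11 members gained a call as higher, 2 lost theirs (Ndufa3 and Atp5g2), and 8 higher and 3 lower calls were kept. Not overlapping were 5 members above and 1 below with that array (4.69% and 4.68% of all genes) and 16 above and 2 below without it (5.51% and 6.32% of all genes). That its fat content accounts for its values was not tested.

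**Figure D3:**
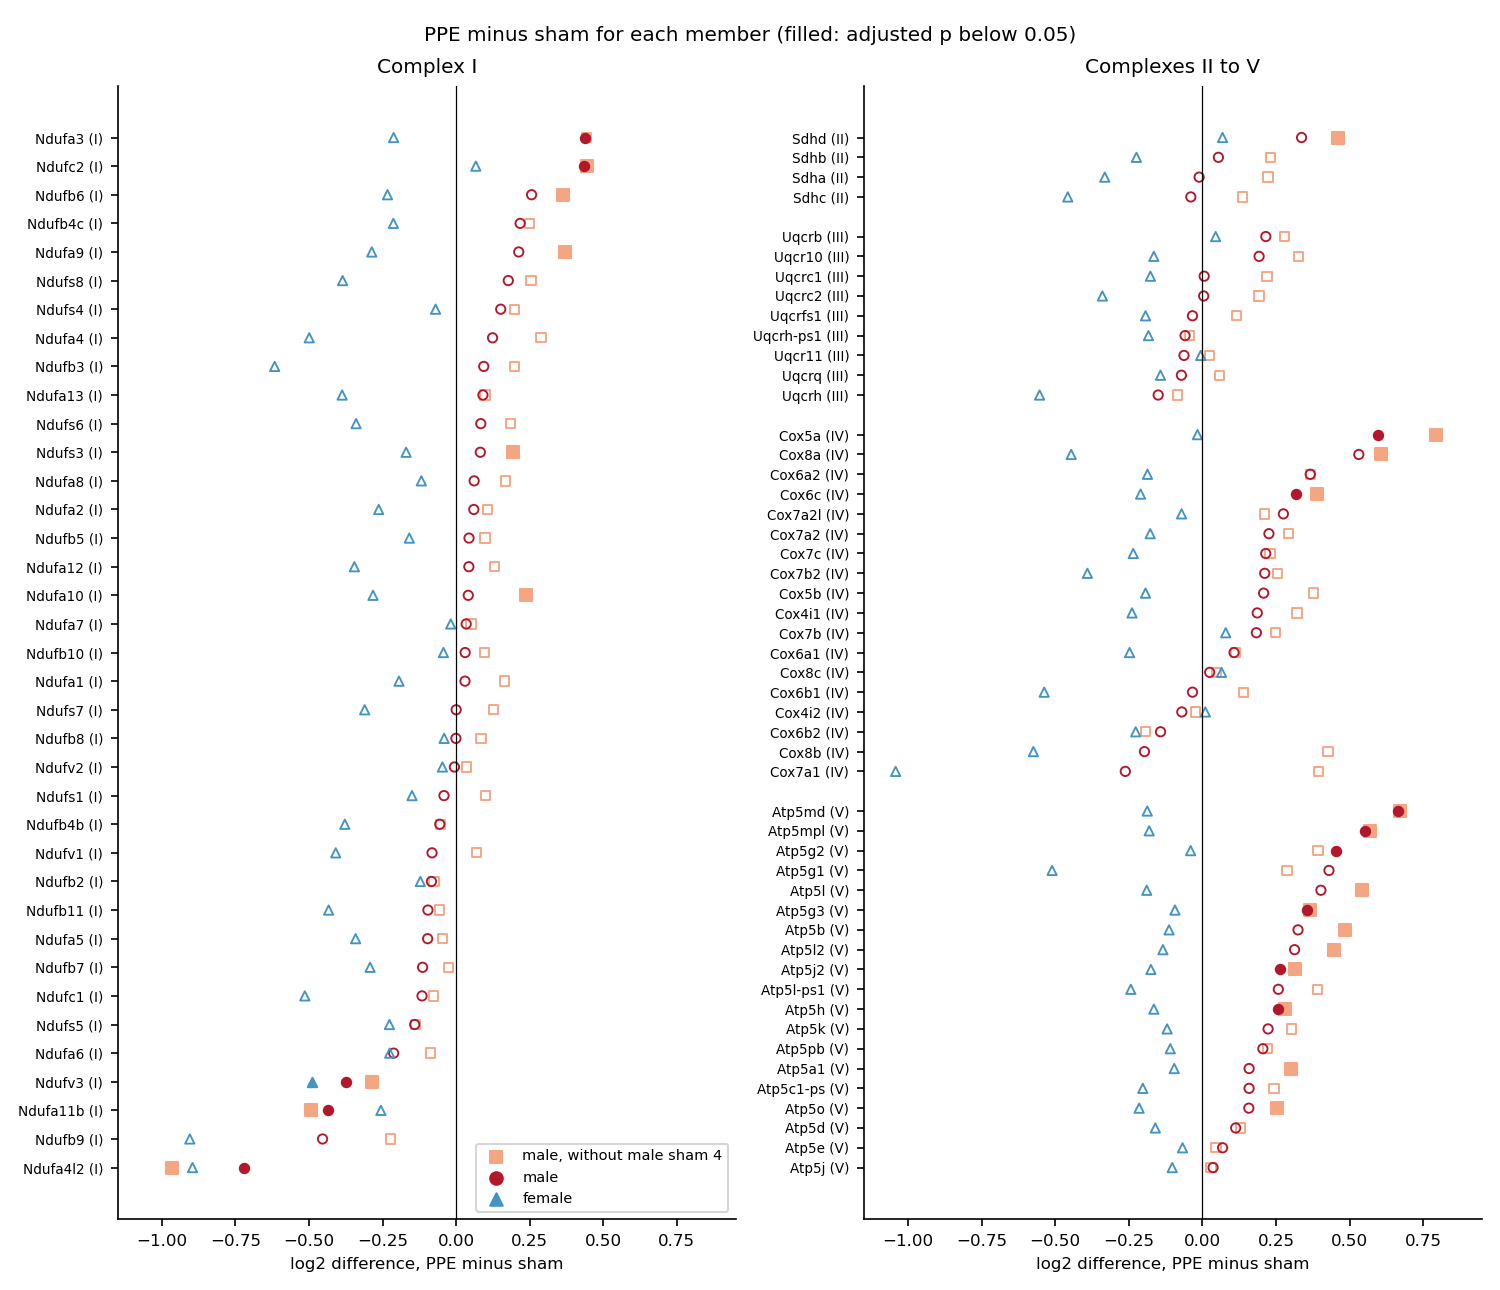
Log2 difference of PPE minus sham for each of the 87 members, grouped by complex, in males over all arrays, in males without male sham 4 and in females, with filled symbols for called members. All 19 complex V members lie above 0 in males and below 0 in females, with medians of 0.26 and −0.16.

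The difference was above 0 in males and below 0 in females for 53 of 87 members, and for 66 without male sham 4, including all 19 of complex V in each case. The male difference exceeded the female one for 83 of 87 members, with a median gap of 0.34, against 0.03 over all genes. The median gaps were 0.31, 0.30, 0.17, 0.41 and 0.44 for complexes I to V. No member was called for this gap by limma, where 0.541% of all genes were called, 0.0398% with a higher and 0.501% with a lower difference in males; 27 members (31%) had an unadjusted p below 0.05, against 9.95% of all genes. The lowest adjusted p were those of Atp5g3 (gap 0.45, 95% interval 0.22 to 0.67, adjusted p = 0.0656), Cox6c (0.53, adjusted p = 0.109) and Atp5g1 (0.94, 0.39 to 1.49, adjusted p = 0.125).

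Without male sham 4 the gap was called for 4 members, against 0.474% of all genes in either direction and 0.0863% with a higher difference in males. These were Ndufa9 (0.66, adjusted p = 0.0303), Ndufa4 (0.79, adjusted p = 0.0461), Ndufa10 (0.52, adjusted p = 0.0486) and Cox6c (0.60, adjusted p = 0.0486). Sex and cohort cannot be told apart here, since array medians also differed between the male and female arrays.

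The brown fat marker mean also differed between the female groups, while the adipocyte and skeletal muscle marker means overlapped. The brown fat mean over 9 markers ran from 6.96 to 7.99 in female PPE arrays and from 8.16 to 8.91 in female sham arrays, with no overlap, and Ucp1 was 8.37, 8.95, 5.93 and 10.90 against 8.96, 9.62 and 12.48. Of 11 listed brown fat genes, 2 of them members, 1 fell in females (Dio2) and 10 were below 0. The adipocyte mean ran from 9.50 to 11.66 in female PPE and from 10.54 to 12.05 in female sham arrays, and 0 of 12 adipocyte markers were called. Without the 3 arrays with the highest Ucp1 (female sham 3, male sham 4 and male PPE 6) the female median over all members was −0.17, and that of complex I was −0.26. Female sham 1 and 2, still in that fit, had brown fat means of 8.16 and 8.32, above every female PPE array. The part of fat in the female differences was not tested. Without the 3 arrays with skeletal muscle signal (female PPE 2, female sham 1 and male PPE 6) the female median was −0.26 over all members.

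**Figure D4:**
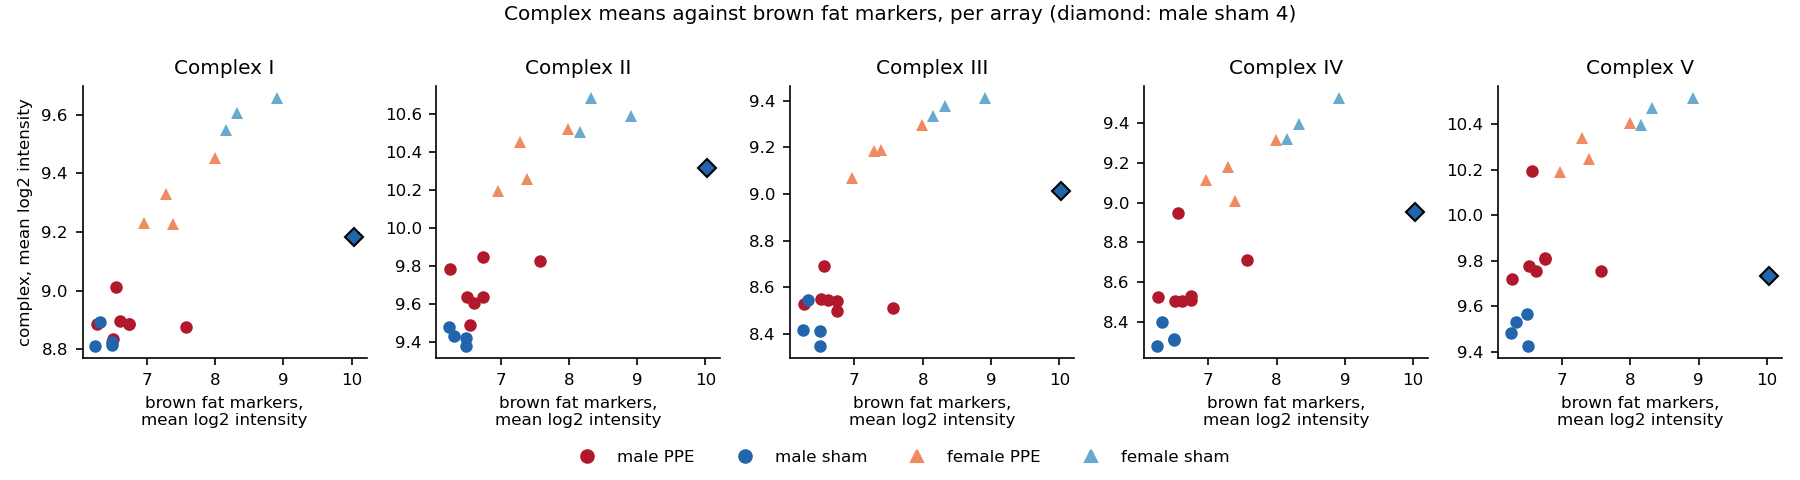
Mean log2 intensity of the members of each complex, 1 panel per complex, against the mean of 9 brown fat markers that are not members. Each panel has 1 point for each of the 19 arrays, coloured by group. Male sham 4 stands at a brown fat mean of 10.03, and the female PPE arrays (6.96 to 7.99) lie left of the female sham arrays (8.16 to 8.91).

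Genes that serve the chain were read from lists of the pathway. Of 40 assembly factors 6 rose and 1 fell in males, and none was called in females. The male calls made up 17.5% of the list, near the 19.7% of all genes called. Cox17, the copper chaperone of complex IV, ran from 8.76 through 8.90 to 9.06 in male PPE arrays, against 8.19, 8.19, 8.37, 8.42 and 7.77 in male sham arrays. It did not overlap and rose by 0.71 ± 0.09 (adjusted p = 1.8e-05), while Ttc19, a complex III factor, fell by 0.40. Of 21 electron carriers and transporters 3 rose in males (14.3%, against 9.67% of all genes). Without male sham 4, 2 rose and 1 fell, against 8.44% and 9.81% of all genes. Slc25a5, an ADP/ATP carrier that exchanges ATP made by complex V for ADP, ran from 13.83 through 14.00 to 14.09 in male PPE arrays, against 12.95, 13.13, 13.37, 13.10 and 12.85 in male sham arrays. For females, Slc25a5 was 14.98, 15.14, 14.85 and 15.05 in PPE arrays, against 14.73, 14.77 and 14.61 in sham arrays. PPE was above sham without overlap in each sex; Slc25a5 rose by 0.90 ± 0.08 in males, and the female difference of 0.30 was not called (adjusted p = 0.13). The gap between the sexes was called for Slc25a5 over all arrays (0.60, limma adjusted p = 0.0473). Without male sham 4 no gene of the list was called for it. The channel gene Vdac2 rose by 0.38 in males.

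Of 15 TCA cycle genes none was called in either sex, with medians of −0.09 in males, 0.14 without male sham 4 and −0.37 in females, where all 15 were below 0. Of 79 genes of the mitochondrial ribosome 7 rose in males (8.86%, near the 9.67% of all genes), among them Mrpl50 (0.42) and Mrps18c (0.38), and Mrpl42 fell in females (−0.52, adjusted p = 0.0482). Of 20 regulators of mitochondrial biogenesis Gabpb1, a subunit of GABP, rose in males (0.31) and was the only one called over all arrays. It made up 5% of the list, below the 19.7% of all genes called, and was not called without male sham 4 (0.23). Of 20 import and chaperone genes Tomm22, an import receptor, rose (0.26, and 0.23, not called, without male sham 4) and Mfn2, a fusion protein, fell (−0.50) in males. These made up 10% of the list, below the 19.7% of all genes. Of 6 genes of the mitochondrial genome only ND2, which encodes a core subunit of complex I, was called, as lower in males. That was 16.7% of the list, near the 19.7% of all genes. The median difference of the 6 was −0.32 in males and −0.42 in females, with 5 of 6 below 0 in each sex. ND2 ran from 14.13 through 14.41 to 15.32 in male PPE arrays, against 15.43, 15.52, 15.20, 15.90 and 15.66 in male sham arrays. The highest PPE array, male PPE 1, overlapped male sham 3, and ND2 fell by 0.95 ± 0.17 (adjusted p = 0.00063).

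**Figure D5:**
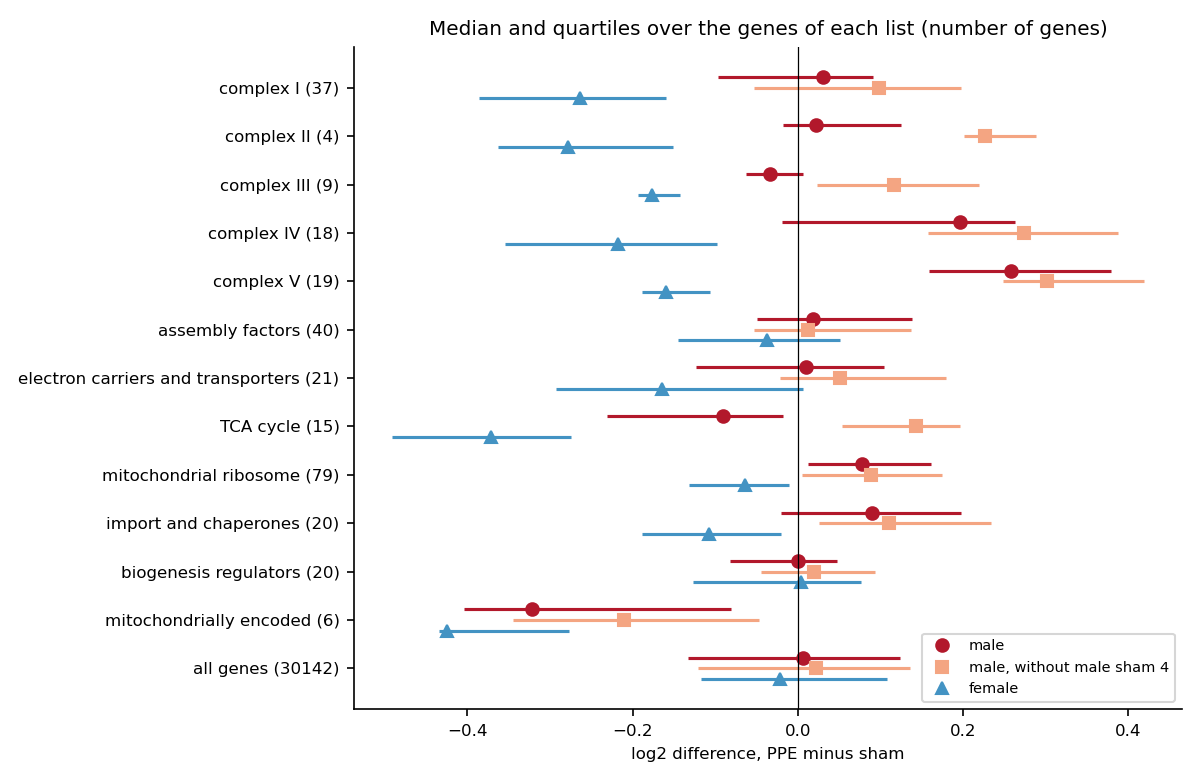
Median log2 difference of PPE minus sham for the members of each complex and for each related gene list, with bars from the lower to the upper quartile, in males, in males without male sham 4 and in females. TCA cycle genes have medians of −0.09, 0.14 and −0.37 and complex V members of 0.26, 0.30 and −0.16.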

How the data were processed

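RNA (100 ng per mouse) was extracted with TRIzol, labelled with the WT PLUS kit and hybridised to Clariom D (MTA 1.0) arrays, per the labels' protocols. The authors deposited log2 intensities made with the Transcriptome Analysis Console on mm10, per the submitters' processing notes; its version, the summarisation and the normalization are not given in these sources, and array medians differ by sex. Of 65956 probe sets 30604 carried 1 symbol, 2146 several and 33206 none. Symbols of 827 were updated through RefSeq, and the brightest probe set per gene left 30142 genes.

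Group means over 19 arrays (15 residual degrees of freedom) were fitted with limma 3.58.1 in R 4.3.3 (lmFit, eBayes, Benjamini-Hochberg at 0.05), without further normalization, filter or block. The procedure was tested on simulated data. Each array held another mouse, and no 2 arrays shared more than 2.5% of their values exactly. Same-numbered arrays did not deviate together (correlations of −0.23 to 0.24 in females and −0.32 to 0.19 in males), so the numbers were not taken as pairs.

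Members and lists were chosen with earlier results of these data known. Named were core subunits, isoform pairs, up to 3 called members per complex, direction and sex, those called for the gap between the sexes or the 3 with the lowest p, up to 3 per complex whose call turned on male sham 4, and 2 called genes per list and sex. Others (Atp5h, Atp5j2, Atp5o, Atp5l2, Ndufa12, Ndufb6, Ndufb9, Cox7a2l, Ucp1, Dio2) were named after their values were seen.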

Additional observations from a re-analysis of the deposited data

Results flagged for a closer look

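In groups of 4 to 7 arrays, 147 sets of values were searched for a single array far from the others by Dixon's test, and 32 values stood apart. The cutoff is set at about 1 in 20 by chance for a single set chosen beforehand. The sets here overlap, since complex means contain searched members. Some genes were also included because their call turned on male sham 4. The count of 32 therefore cannot be compared with that rate. Of these 12 came from male sham 4, 11 from male PPE 1, 4 from male PPE 6 and 1 each from 5 other arrays.

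Male sham 4 stood above the other male sham arrays in the mean of complex I (9.18 against 8.81 to 8.89), complex II (10.32 against 9.38 to 9.48), complex IV (8.95 against 8.28 to 8.40) and the brown fat markers (10.03 against 6.25 to 6.5). The same array was high for Sdha (11.54 against 10.19 to 10.52), Sdhb (10.35 against 9.33 to 9.56), Sdhc (9.30 against 8.33 to 8.6) and Uqcrfs1 (7.73 against 6.86 to 7.10). It was also high for Cox7a1 (9.29 against 5.66 to 6.40), Cox8b (7.06 against 3.71 to 4.20), Ndufa10 (10.56 against 9.43 to 9.66) and Ndufa9 (9.78 against 8.92 to 9.13).

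Male PPE 1 stood above the other male PPE arrays in the mean of complex I (9.01 against 8.83 to 8.90), complex III (8.69 against 8.50 to 8.55) and complex V (10.19 against 9.72 to 9.81). Among members it was high for Ndufv1 (8.89 against 8.46 to 8.62), Cox6b2 (5.71 against 5.18 to 5.39), Cox7a2 (10.74 against 10.22 to 10.40) and Atp5g1 (9.15 against 8.46 to 8.59). The same held for Atp5g2 (14.25 against 13.26 to 13.50) and Atp5md (12 against 10.76 to 11.19). It was low for Ndufs1 (9.41 against 9.87 to 10.06) and Uqcrc2 (11.13 against 11.35 to 11.42).

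Male PPE 6 was high in the brown fat marker mean (7.57 against 6.27 to 6.74), the skeletal muscle marker mean (6.77 against 5.17 to 5.54), Cox7a1 (7.41 against 5.89 to 6.48) and Cox8b (5.07 against 3.87 to 4.37). Female PPE 2 was high in the skeletal muscle marker mean (8.85 against 5.79 to 5.84). Female PPE 1 was low for Ndufa4l2 (6.90 against 7.31 to 7.35), male sham 1 for Atp5g3 (9.51 against 9.70 to 9.74) and male sham 5 for Atp5md (10.30 against 10.48 to 10.53). Male PPE 2 was high for Ndufa9 (9.47 against 9.32 to 9.38).

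The PPE response differed between the sexes by the limma test without male sham 4 for Ndufa10 (0.52), Ndufa4 (0.79), Ndufa9 (0.66) and Cox6c (0.60), each higher in males. Over all arrays none of the 4 was called for this difference.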

How the results depend on the processing

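Precision is limited by 3 to 7 arrays per group. Members called higher in males (10) became 22 with array weights, 5 with only the groups compared, 18 without the 3 arrays highest in Ucp1, and 23 without male sham 4, male sham 5 and male PPE 1, which stood apart. With male sham 4 left out they were 23 after quantile normalization and 25 after median centring. Leaving out 1 array gave 5 to 19, the lowest without male sham 1 and the highest without male sham 4. Members called lower in males (3) were 0 with the replicate block, 1 without the 3 arrays that stood apart, 1 without the 3 highest in Ucp1, and 2 to 3 without 1 array. The block, for numbers that mark no known pairing, gave 8 higher in males, and 0 higher and 1 lower in females.

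Members called lower in females (1) were 4 after quantile normalization, 3 with a filter on dim genes, 0 with an intensity trend and robust prior, 21 with array weights and 4 with only the groups compared. Ndufv3, the 1 called over all arrays, was not among those called after quantile normalization or with only the groups compared. They were 18 after quantile normalization and 5 after median centring with male sham 4 left out, 16 without the 3 arrays that stood apart, 3 without those highest in Ucp1 and 0 without those with skeletal muscle signal. Those called without male sham 4 were Ndufa12, Ndufa4, Ndufa4l2, Ndufb9, Ndufv1, Ndufv3 and Sdhc. Leaving out 1 array gave 0 to 7, with 7 without male sham 4, 4 without female PPE 4, and 2 without male sham 5 or male PPE 1. It gave 0 without female sham 2, female sham 3, female PPE 1, 2 or 3, male sham 1 or 2, or male PPE 2, 4, 5, 6 or 7.

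For the gap between the sexes (0 called higher in males) the counts were 2 after quantile normalization, 1 after median centring, 17 with array weights, 4 without the 3 arrays that stood apart and 3 without those highest in Ucp1. With male sham 4 left out they were 16 after quantile normalization and 6 after median centring. Leaving out 1 array gave 0 to 4, with 2 without male sham 3, 4 without male sham 4 and 1 without female sham 3.

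After quantile normalization the female medians were −0.31 over all members, −0.36 for complex I, −0.38 for II, −0.26 for III and −0.25 for V; with male sham 4 left out as well they were −0.31, −0.36, −0.39, −0.26 and −0.25, and the median gaps were 0.56 over all members, 0.52 for I, 0.49 for III and 0.59 for V. The female median of complex III was −0.13 without the arrays with skeletal muscle signal, and between −0.21 and −0.13 without 1 array. That of complex V lay between −0.20 and −0.09, with −0.09 without female PPE 3. The male median of complex V lay between 0.21 and 0.30 without 1 array, with 3 called without male sham 1 and 10 without male sham 4. Uqcrfs1 turned in males to 0.12 without male sham 4, where it was not called, and to 0.19 when quantile normalization was applied as well. The cause of these changes was not tested.

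Of the 13 male calls 6 were kept in all 19 fits without 1 array (Ndufc2, Ndufv3, Cox6c, Atp5g3, Atp5md and Atp5mpl). Only the 12 of these fits that left out a male array could change a male difference. Atp5h was lost without male sham 1, 2 or 5 or male PPE 1, 3, 4 or 5, Atp5j2 without male sham 1, 2 or 5 or male PPE 5 or 6, and Atp5g2 without male sham 1, 2 or 4 or male PPE 2, 6 or 7. Ndufa3 was lost without male sham 1, 2 or 4 or male PPE 1, 2 or 3, and Ndufa11b without male sham 2 or 5 or male PPE 1, 2, 3, 4 or 7. The 5 settings that leave out male sham 4 with another normalization, or 3 arrays, were chosen after seeing the data.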

Other observations

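Ppargc1a, the coactivator of mitochondrial biogenesis, was among the 20 biogenesis regulators and is given here after its values were seen. In females it was 6.28, 6.51, 6.40 and 6.95 in PPE arrays, against 6.95, 7.29 and 7.18 in sham arrays, and PPE 4 met sham 1. In males it ran from 5.82 through a median of 5.98 to 6.11 in PPE arrays, against 5.99, 5.72, 5.92, 8.25 and 5.80 in sham arrays. Male sham 4 was the array at 8.25. Slc25a4, the ADP/ATP carrier of heart and muscle, was 12.87, 13.26, 12.99 and 13.24 in female PPE arrays, against 13.48, 13.41 and 13.26 in female sham arrays, and was not called in either sex.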
